A study of Caenorhabditis elegans with 4 samples.

Results

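The NFYA-1 sites on the X chromosome of Caenorhabditis elegans are described here. They are all lines on X in the authors' combined list of ChIP-seq peaks, 210 of 1333 sites in all. No measured value entered this rule, but the part was chosen with earlier results of these data known. The replicate lists held 89 X sites of 547 (replicate 1) and 120 X sites of 695 (replicate 2). The 1123 combined sites on the 5 autosomes are the background.

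All samples came from strain OP404, young adult hermaphrodites grown at 20 °C. These animals carry the unc-119(ed3) III mutation and an integrated transgene, wgIs404, made by bombardment, which brings both nfya-1::TY1-GFP-3xFLA and unc-119(+). The labels name no mutation of the endogenous nfya-1, and the tagged copy is the one on the transgene. Chromatin was fixed with 2% formaldehyde, and DNA bound by the tagged protein was collected with anti-GFP antibodies in 2 ChIP samples, each with an input sample of the same replicate number. No group differs in genotype, treatment or stage, so no condition was compared. Nothing in the labels tells whether both replicates came from separate cultures, so the spread between them may be technical.

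NF-Y is a transcription factor of 3 kinds of subunit. The B and C subunits pair through histone folds, and the A subunit, here NFYA-1, joins them and contacts the CCAAT box in promoters. The gene nfya-1 itself lies on X. In hermaphrodites a condensin-like dosage compensation complex binds along both X chromosomes and lowers their expression, and in the germ line X is largely silent and poor in germline-expressed genes. Autosomes have gene-dense centres between repeat-rich arms, while genes are spread more evenly along X. These statements are background. Whole animals were used, so binding in fewer cells and weaker binding in each cell cannot be told apart.

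Each peak carries a q-value, given here as −log10 q. This is the authors' own value for that peak, and a larger number means stronger evidence of enrichment. It is called strength below. Positions are on the build WormBase WS180. No genome or annotation of that build was used, so sites are given without their sequence or genes. No read counts were used, so depth is unknown. Ranges in brackets after a percentage are 95% intervals (exact, Clopper-Pearson) and reflect counting error alone. Sites on 1 chromosome share their libraries and are not replicates, so differences between X and the autosomes were not tested. They are given with the value of each list and each autosome.

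A few NFYA-1 sites on X were far stronger than the rest. The strongest spanned bases 6091320 to 6093530 of X, 2211 bp, with a strength of 174 in the combined list. Replicate 1 gave 119.6 there and replicate 2 gave 161, so it was the strongest X site of every list, and it ranked 3 in the genome. The second spanned 4523396 to 4524492, 1097 bp, with 129.6 in the combined list, 64.1 in replicate 1 and 92.03 in replicate 2. The next spanned 7068291 to 7068895, only 605 bp, with 86.6, 54.4 and 70.6 in the same order. These 3 sites had ranks 1, 2 and 3 on X in each of the 3 lists.

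The fourth strongest site lay at 16929380 to 16932040, near the right end of the listed sites, and spanned 2661 bp with strengths of 75.2 in the combined list, 33.1 in replicate 1 and 35.97 in replicate 2. The fifth lay at 1503403 to 1505179, near the left end, with 68.1, 30.4 and 32.5. The combined strength thus fell in large steps over the first 3 ranks and in smaller ones over ranks 4 to 20. The narrowest of the 20 strongest was the site at 382695 to 383159, 465 bp wide with a combined strength of 40.5, and the widest was the site at 6740390 to 6745736, 5347 bp wide with 33.2.

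Ranks 6 to 10 on X began at bases 15840923, 8035958, 16611273, 4208494 and 14525301, with combined strengths of 62.8, 56.6, 52.7, 51.6 and 51.4. Ranks 11 to 15 began at 11093743, 2996371, 6296132, 16056106 and 4960302, with 51.1, 48.8, 48.2, 46.2 and 41.8. The site at 7822788, with 41.1, and those at 13700429 and 12362695, with 32.2 and 31.5, complete the 20 strongest. They were scattered along the chromosome, with 6 in the left of 3 equal parts, 7 in the middle and 7 in the right.

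All 20 of these sites were listed in both replicates. Over ranks 4 to 20 the strength ran from 10.7 to 33.1 in replicate 1 and from 15.5 to 46.9 in replicate 2. Replicate 2 had the larger value at 16 of the 20. Among the 20 strongest X sites of the combined list, 17 were also among the 20 strongest X sites of replicate 1, 18 among those of replicate 2 and 16 among those of both. The order moved between replicates: the site at 16611273 to 16612990 ranked 13 on X in replicate 1, with 20.7, and 5 in replicate 2, with 40.2, and the site at 4208494 to 4209703 ranked 6 in replicate 1, with 29.6, and 15 in replicate 2, with 23.5.

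**Figure D1:**
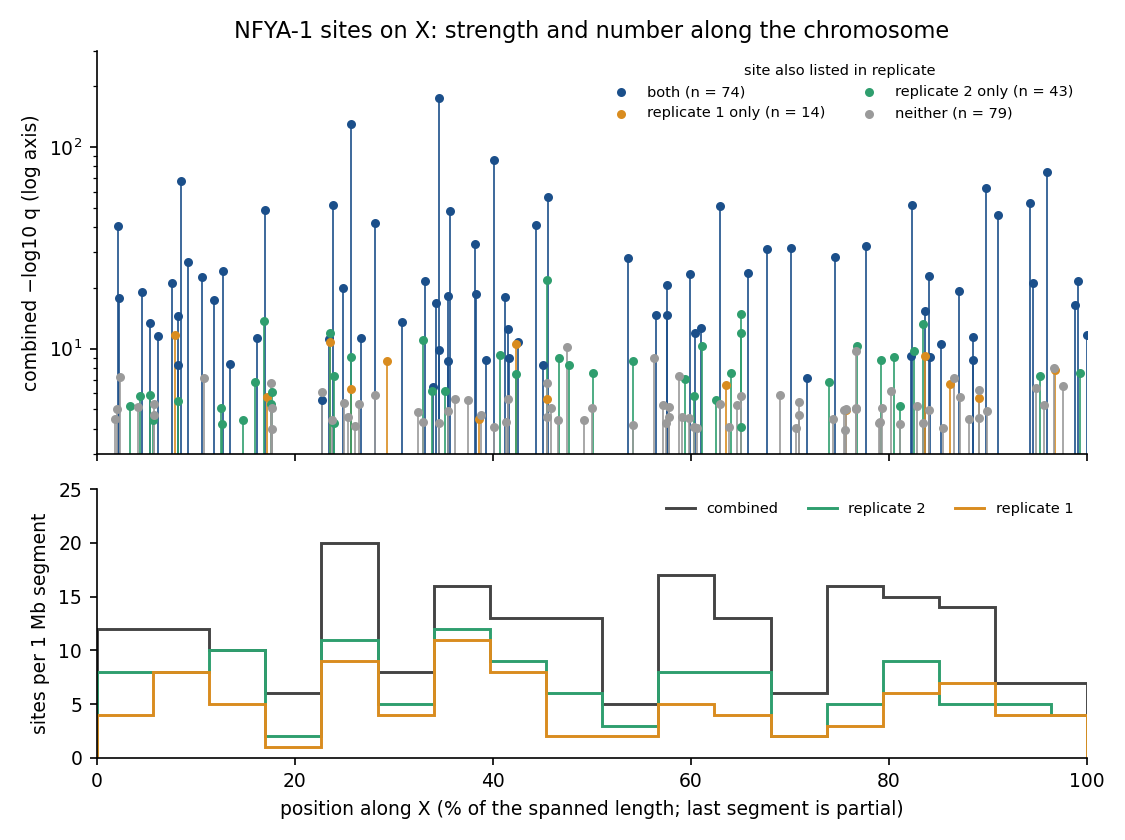
Upper panel: each of the 210 X sites by its position along X (percent of the spanned length) and its strength in the combined list (−log10 q, log axis), coloured by the replicates that also list it. Lower panel: sites per 1 Mb segment in each list. Strong sites occur along the whole chromosome, and the segments range from 5 to 20 combined sites.

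Sites with a strength of 20 or more made up a larger share of X than of any autosome in each list. In the combined list they were 35 of 210 X sites, or 16.7% (11.9 to 22.4%), against a background of 8.90% on the autosomes, where single chromosomes ran from 5.56% (V) to 11.2% (II). In replicate 1 they were 14 of 89 X sites, 15.7% (8.88 to 24.98%), against 5.90% on the autosomes (4.17% on IV to 10.4% on V). In replicate 2 they were 18 of 120, 15.0% (9.14 to 22.7%), against 7.65% (6.67% on III to 8.75% on V). At this cut X was thus the highest of the 6 chromosomes in all 3 lists, but its interval overlapped that of at least 1 autosome in each. The share at a cut of 20 was added after the data were seen, and the lead of X depended on the cut. In the combined list X had 39 sites from 10 to 20 and 35 of 20 or more, of 210. II had 40 and 19 of 169, so at 10 or more X and II were nearly level. The combined list rests on the same libraries as the replicate lists and is not a separate measurement.

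In each list X had a larger share of the 50 strongest sites than of all sites. X held 15.8% of all combined sites, and 45 of the 200 strongest, 24 of the 100 strongest and 16 of the 50 strongest (32.0%, 19.5 to 46.7%). In replicate 1 it held 16.3% of all sites and 16 of the 50 strongest (32.0%). In replicate 2 it held 17.3% of all sites and 15 of the 50 strongest (30.0%, 17.9 to 44.6%). The share was lower among the 20 strongest, with 5 on X in the combined list (25%, 8.66 to 49.1%), 5 in replicate 1 (25%) and 4 in replicate 2 (20.0%). The autosome with most of the 50 strongest was III, with 9 in the combined list, 10 in replicate 1 and 9 in replicate 2.

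Counted per length, strong sites were not densest on X in every list. X had 1.99 sites of strength 20 or more per Mb of spanned length in the combined list, just under the 2.04 of III and above the 0.529 to 1.43 of the other autosomes. In replicate 1 X had 0.794 per Mb, the highest, with III next at 0.584. In replicate 2 X had 1.02 and III 0.876. The density of weaker sites on X lay within the range of the autosomes. In the combined list X had 9.93 per Mb below a strength of 20, between V with 9.001 and II with 9.98, while III had 22.2. In replicate 1 X had 4.25, above V with 2.89 and I with 4.15, and in replicate 2 it had 5.79, above V with 3.51 and I with 5.28. The 5 autosomes together gave 12.5, 5.26 and 6.48 in the combined list, replicate 1 and replicate 2, and without III they gave 10.5, 4.28 and 5.32, so that X was no longer lower in replicate 2.

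Median strength gave X no fixed rank among the chromosomes. In the combined list it was 7.27 on X (quartiles 5.09 and 13.4), against 7.09 on the autosomes (5.25 and 11.5), and II and III had higher medians, 7.53 and 7.56. In replicate 1 it was 6.86 on X, below I with 6.96 and above the other autosomes. In replicate 2 it was 7.24 on X, above every autosome (6.24 to 6.9996). The upper quartile was above that of every autosome in each list. It was 13.4 in the combined list, where the autosomes ran from 9.65 to 12.5. Replicate 1 gave 11.8 on X and 8.66 to 10.1 on the autosomes, and replicate 2 gave 13.7 on X and 9.01 to 10.9 on the autosomes.

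**Figure D2:**
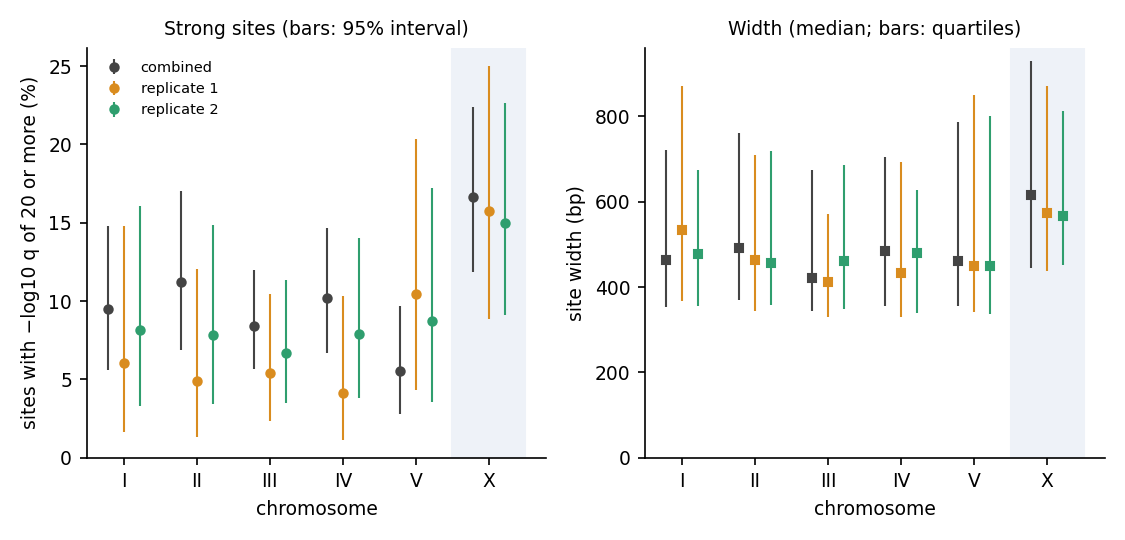
Left: percent of sites with −log10 q of 20 or more on each chromosome, with 95% intervals. Right: median site width in bp, with bars to the quartiles. Black is the combined list, orange replicate 1 and green replicate 2, and X is shaded. X has the highest point of each colour in both panels, from 15.0% to 16.7% on the left and from 567 to 616 bp on the right.

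NFYA-1 sites on X had a larger median width than those on any autosome. The median width was 616 bp on X (quartiles 446 and 931) against 456 bp on the autosomes (353 and 720), and the 5 autosomes ran from 421.5 bp (III) to 491 bp (II). Replicate 1 gave 574 bp on X against 412 to 535 bp on single autosomes, and replicate 2 gave 567 bp against 449 to 479 bp. X had the highest median in all 3 lists. The narrow end moved as well: the lower quartile of the combined list was 446 bp on X and 344 to 370 bp on the autosomes. It was 439 bp on X and 329 to 368 bp on the autosomes in replicate 1, and 452 bp on X and 336.5 to 358 bp on the autosomes in replicate 2.

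Very wide sites made up a larger share on X than on the autosomes together in each list. In the replicate lists, however, single autosomes had a larger share than X. Those over 1000 bp numbered 42 on X, 20.0% (14.8 to 26.1%), against a background of 13.6%, but V had 19.7%. In replicate 1 X had 17, 19.1% (11.5 to 28.8%), against a background of 13.3%, and I and V had 24.2% and 19.4%. In replicate 2 X had 18, 15.0% (9.14 to 22.7%), against 12.2%, and II and V had 16.7% and 17.5%. The interval of X included the background in both replicates. The widest X site, of 5347 bp, was narrower than the widest on I, II and V, which reached 6397, 14405 and 9356 bp.

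Width rose with strength on X, and the greater width of X sites was seen within classes of strength. Spearman's rho of width and strength was 0.354 over the 210 X sites and 0.307 over the autosomal ones, and the peak calling that set the width also set the strength. Among the weakest sites, of strength below 5, the median width was 492 bp on X (n = 45) and 401 bp on the autosomes (n = 239). From 5 to 7 it was 564 bp (n = 55) against 415 bp, from 7 to 10 it was 585 bp (n = 36) against 435 bp, and from 10 to 20 it was 625 bp (n = 39) against 543 bp. At 20 or more it was 944 bp (n = 35) against 752.5 bp (n = 100). X lay above every single autosome in the 3 middle classes, whereas II had 510 bp in the weakest class and V 1011 bp in the strongest.

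X sites covered 168 kb in the combined list, or 9.53 kb per Mb. This was less than on III, with 13.96 kb per Mb, and more than on the other autosomes, which ran from 7.54 (V) to 8.98 (IV). The 5 autosomes together gave 9.23 kb per Mb, and 8.28 without III. In replicate 1 X had 3.77 kb per Mb, against 3.46 on the autosomes and 3.08 without III, and in replicate 2 it had 5.09, against 4.53 and 3.98.

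**Figure D3:**
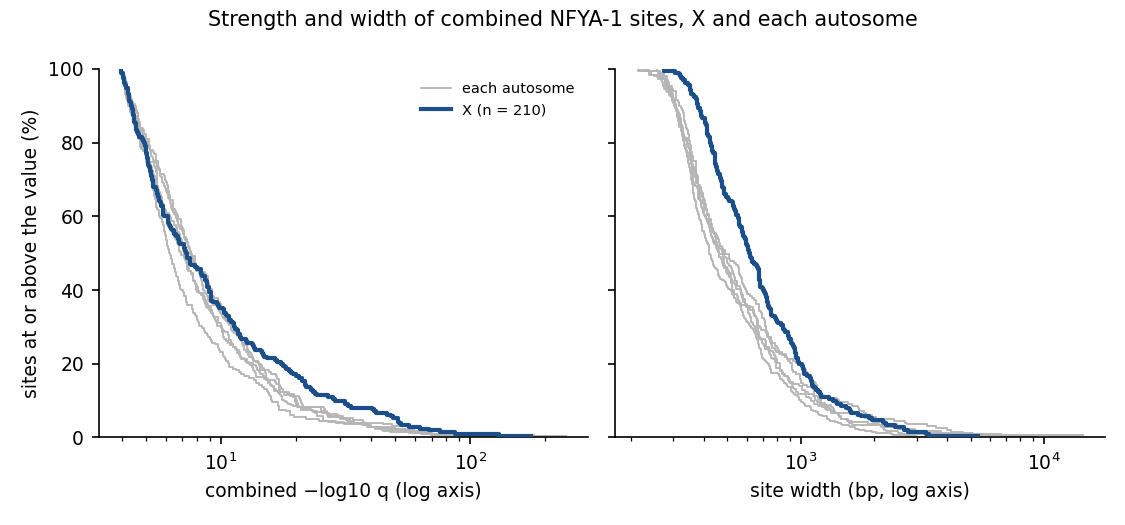
Percent of combined sites at or above a given strength (left, −log10 q, log axis) or width (right, bp, log axis), for X (blue) and each autosome (grey). The width curve of X lies to the right over most of its range, with a median of 616 bp, while the strength curve leaves the others only among the stronger sites.

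The widest X sites differed in how the replicates listed them. The site of 5347 bp at 6740390 was 1 site of 2086 bp in replicate 1, with a strength of 10.7, and 1 site of 3711 bp in replicate 2, with 16.7. The next, at 11603170 to 11606533, spanned 3364 bp with a combined strength of 23.7, and was 1 site in replicate 1 and 2 sites in replicate 2. The third, at 13541955 to 13545229, spanned 3275 bp with 10.3 and was listed in replicate 2 only, with 8.43. The fourth, at 8019397 to 8022157, spanned 2761 bp with 21.9. It matched 2 sites of replicate 2, of up to 7.24, and none of replicate 1, and it was the only X site of strength 20 or more that a replicate missed. The fifth was the strong site at 16929380, of 2661 bp, which kept nearly its whole width in both replicates, 2565 and 2630 bp.

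The share of X sites found in the replicates was near the background. Of the 210 X sites, 74 overlapped a site in both replicates by at least 1 bp, which is 35.2% (28.8 to 42.1%) against a background of 32.1%. Another 14 overlapped replicate 1 only (6.67% against 7.57%), 43 overlapped replicate 2 only (20.5% against 17.7%) and 79 overlapped neither (37.6%, 31.0 to 44.5%, against 42.6%). Each X share lay within a few points of its background, and the interval of each included it. Single autosomes ran from 22.7% (V) to 40.2% (II) in both, and from 36.1% (II) to 52.5% (V) in neither. Read from the replicate lists, 75 of 89 replicate 1 sites on X were in replicate 2 (84.3%, 75.02 to 91.1%, against 81.2% on the autosomes), and 75 of 120 replicate 2 sites on X were in replicate 1 (62.5%, 53.2 to 71.2%, against 64.2%).

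Support followed strength. At 20 or more, 34 of 35 X sites were in both replicates (97.1%), against 100 of 100 on the autosomes. Between 10 and 20, 27 of 39 X sites were (69.2%, 52.4 to 83.0%), against 82.0% (76.7 to 86.6%) on the autosomes. Every single autosome lay above X in this class, from 74.3% (V) to 88.0% (IV). Between 7 and 10, 11 of 36 X sites were in both (30.6%) against 24.2%, and between 5 and 7 it was 2 of 55 against 4 of 308. Of 45 X sites below 5, none was in both, and 38 were in neither (84.4%). Of 239 autosomal sites below 5, none was in both either, and 217 were in neither (90.8%). Sites in both replicates had a median strength of 18.9 on X (n = 74) and 15.1 on the autosomes (n = 361), and a median width of 723.5 against 569 bp. Sites in neither had medians of 5.01 on X and 5.17 on the autosomes, and of 492 against 404.5 bp.

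**Figure D4:**
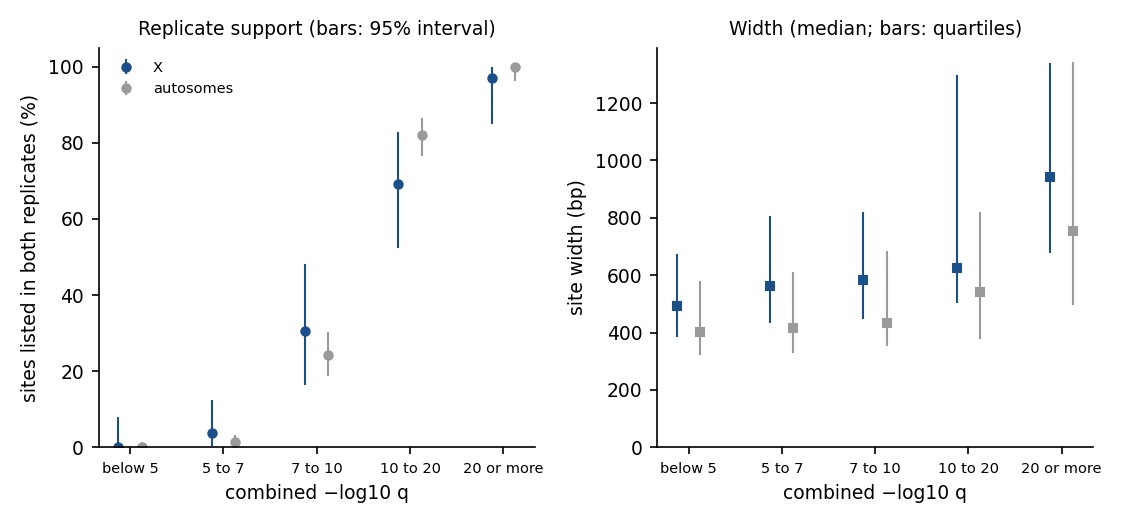
Left: percent of combined sites listed in both replicates by class of strength, with 95% intervals. Right: median width in bp by the same classes, with bars to the quartiles. X is blue and the autosomes together are grey. Support climbs from 0 to 97.1% on X with intervals that overlap those of the autosomes, and the median width of X is the larger in every class. Strength and support rest on the same libraries, so the climb was partly set by construction.

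Among the weakly supported X sites, the strongest in neither replicate lay at 8368111 to 8368461, 351 bp wide with a combined strength of 10.2. The strongest in replicate 1 only lay at 1389243 to 1389984, with 11.7 in the combined list and 4.41 in replicate 1. The strongest in replicate 2 only was the wide site at 8019397 described above. All 89 replicate 1 sites on X and 119 of the 120 replicate 2 sites overlapped a combined site. The missing one lay at 6737393 to 6738076, with a strength of 4.26, just left of the widest X site.

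The 75 pairs of X sites listed in both replicates, matched one to one, agreed closely in order of strength. Only overlapping sites were paired, so their closeness in place was partly set by the matching. The median distance between midpoints was 27.5 bp on X, much like the 28 bp on the autosomes. It was within 200 bp for 70 of the 75 X pairs and for 336 of the 367 autosomal pairs. Replicate 2 had the larger strength at 52 pairs, 69.3%, against 66.5% of the 367 autosomal pairs. The median ratio of replicate 2 to replicate 1 was 1.30 on X (quartiles 0.894 and 1.55). It was 1.12 on the autosomes together, and single autosomes ran from 1.05 (III) to 1.28 (V). Across the 75 pairs, Spearman's rho was 0.827 and Pearson's r 0.971, and leaving out the 2 pairs with the most extreme replicate 1 values gave an r of 0.902. Single autosomes gave a rho from 0.61 (V) to 0.758 (IV). Their r ran from 0.609 (V) to 0.980 (I), and both I and III, with 0.977, were above X. Without the 2 most extreme pairs it ran from 0.313 (V) to 0.901 (III). Each replicate list rests on 1 ChIP library, and sites of 1 library share its depth. The combined list had a larger strength than either replicate at 72 of the 74 X sites in both, and the median ratio to the larger replicate value was 1.66 (quartiles 1.43 and 1.93).

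**Figure D5:**
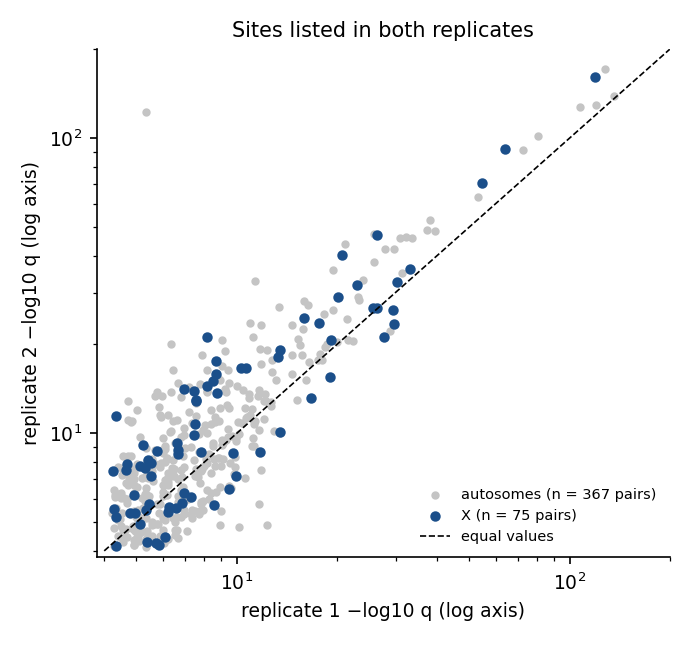
Strength in replicate 2 against replicate 1 (−log10 q, both axes log) for sites listed in both, with 75 pairs on X in blue and 367 autosomal pairs in grey. The dashed line marks equal values. Most X pairs, 52 of 75, lie above it, and the 3 strongest X sites stand apart at the upper right.

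NFYA-1 sites were spread along the whole of X. The listed sites ran from base 324018 to base 17631229, and the last of these served as the length of X, 17.6 Mb. X had 11.9 combined sites per Mb, near I with 11.97, above II with 11.2 and V with 9.53, and below IV with 14.02 and III with 24.2. The autosomes together gave 13.7, and 11.6 without III, so the direction of the difference turned with III. In replicate 1 X had 5.05 per Mb, against 5.59 on the autosomes and 4.56 without III, and in replicate 2 it had 6.81, against 7.02 and 5.79. The left, middle and right of 3 equal parts held 66, 78 and 66 sites, so the middle had 37.1% (30.6 to 44.1%) against 34.6% on the autosomes, which ran from 29.2% (III) to 48.0% (I). Replicate 1 had 36.0% in the middle against 31.4%, and replicate 2 had 39.2% against 31.7%.

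Each whole 1 Mb segment of X held 11.9 ± 4.35 combined sites (SD, n = 17 segments), 5 ± 2.81 in replicate 1 and 6.82 ± 3.00 in replicate 2. The variance over the mean was 1.59 in the combined list, above IV with 1.12 and below the other autosomes, which ran from 2.32 to 4.96. The densest segment of the combined list was that from 4 to 5 Mb, with 20 combined sites, 9 in replicate 1 and 11 in replicate 2. It was followed by 10 to 11 Mb, with 17, 5 and 8, and by 6 to 7 Mb and 13 to 14 Mb, with 16 combined sites each. In both replicates the densest was that from 6 to 7 Mb, with 11 sites in replicate 1 and 12 in replicate 2, while that from 13 to 14 Mb had 3 and 5. These 2 segments differed in support: 9 of the 16 sites from 6 to 7 Mb were in both replicates, but 2 of the 16 from 13 to 14 Mb were, and 10 of those were in neither.

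The emptiest whole segments of the combined list were 9 to 10 Mb, with 5 combined sites, and 3 to 4 Mb and 12 to 13 Mb, with 6 each. The segment from 3 to 4 Mb had no site in both replicates, and its strongest site reached 6.79. It contained most of the longest gap of X, 879 kb from base 3128135 to base 4007524. The second gap, of 629 kb, ran from 8836234 to 9465391, and the third, of 554 kb, from 16056830 to 16611273, with 1 of the 20 strongest X sites at each of its ends.

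Spacing on X ranged from 242 bp to these gaps. The median gap was 45.2 kb (quartiles 9.73 and 122 kb), within the range of the autosomes, which ran from 20.1 kb (III) to 57.6 kb (V). The autosomes together gave 33.7 kb, and 43.3 kb without III. The next site lay less than 5 kb away for 37 of 209 X sites with a next site, 17.7% (12.8 to 23.6%), against a background of 20.3%. Replicate 1 gave 8 of 88, 9.09% against 13.7%, and replicate 2 gave 15 of 119, 12.6% against 13.7%. The interval of X included the background in each list. Without III the autosomes gave 17.7% in the combined list, 12.7% in replicate 1 and 11% in replicate 2, so that X was level with them in the first and higher in the last.

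These gaps joined 65 X sites into 28 stretches, of which 21 held 2 sites, 5 held 3 and 2 held 4. One stretch of 4 ran from 8017140 to 8027268 and was built around the wide site at 8019397, and the other ran from 11467122 to 11477261, with strengths from 4.08 to 14.9. In the latter, the sites at 11471062 and 11472938 overlapped the same replicate 2 site, of 3753 bp. Neither stretch of 4 had a site listed in both replicates. Of the stretches of 3, that from 3106107 to 3116755 had no site in either replicate, while that from 6088584 to 6097868 held the strongest X site with weaker neighbours of 9.80 and 4.26. In 15 of the 28 stretches the strongest member was in both replicates, in 3 every member was, and in 12 no member was. Of the 20 strongest X sites, 6 had such a close neighbour (30.0%), close to the share among all X sites (31.0%), and the others stood alone.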

How the data were processed

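The series holds 2 ChIP samples and 2 inputs of 1 strain. The authors deposited 3 peak lists with a q-value for each peak, called with PeakSeq on WormBase WS180, per the file headers and columns. Not given in the sources used here were the PeakSeq version, the aligner, the filters, the q limit and how the combined list was made. Replicate 1 repeats lines (1641 lines, 618 distinct), and those written 2 or 3 times were used. The q-values were turned into −log10 q. Lists were compared by overlap of at least 1 bp, and replicate sites were paired one to one by the largest overlap. A segment or part holds the sites with their midpoint in it. The last listed peak end served as chromosome length. The code was tested on simulated lists. No test between chromosomes was run, and depth is unknown. Members, lists and thresholds were chosen with earlier results of these data known. Sites were named by rank of strength, width, support, density and gaps. Python 3.11.15, numpy 2.4.6, scipy 1.17.1 and matplotlib 3.10.9 were used.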

Additional observations from a re-analysis of the deposited data

How the results depend on the processing

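For 12 values on X, 65 alternatives were computed, 10 of them and the shares of strong and of wide sites added after the data were seen. Of these, 39 stayed within the 95% interval of the value or, for medians and density, within 1 SD between the replicate lists, and 26 did not. All 16 alternatives on replicate support stayed within it, and so did the share of strong sites in single replicates. The density of 11.9 sites per Mb was 9.36 at a strength of 5 or more and 4.20 at 10 or more or for sites in both replicates. The median strength was 9.08, 19.2 and 18.9 under these settings in turn, and the median width 673, 748 and 723.5 bp, or 574.5 bp below 10. The share with a next site under 5 kb was 6.85% at 10 or more and in both replicates, 12.7% after merging sites under 1 kb apart, and 25.4% for 10 kb. The middle 3 of 5 parts held 60.5%. X held 20.98% of sites without chromosome III. Sites of 10 or more were 74 of 210 on X, 35.2%, against 345 of 1123 on the autosomes. On X, sites over 500 bp were 65.2%, and those over 1000 bp 35.1% among sites of 10 or more. These settings keep fewer or other sites by construction.

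The combined list was not remade with 1 replicate left out, and the list of the other replicate alone was taken instead. In these lists density ran from 5.05 to 6.81, median strength from 6.86 to 7.24 and median width from 567 to 574 bp. Close neighbours ran from 9.09% to 12.6%. The wider median of X over every autosome held after merging (614 against 430 to 495.5 bp) and in sites in both replicates (723.5 against 518 to 646). It also held at 10 or more (748 against 550 to 658) and below 10 (574.5 against 390 to 456). It did not hold below 5, where II had 510 bp and X 492 bp. Nor did it hold at 20 or more, where V had 1011 bp and X 944 bp. Strong sites were 17.7% on X after merging, against 5.88 to 12.2% on single autosomes. They were 45.9% against 23.5 to 33.3% among sites in both, and 47.3% against 23.9 to 33.3% at 10 or more. These subsets keep nearly all of the same strong sites and change mainly the total, so they are not separate checks. The comparisons with the autosomes without III were chosen after the data were seen. Lengths from the build were not in the headers, so that alternative was not run. No paired analysis was possible because no values of the input samples were used and nothing was compared between groups.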

Other observations

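The replicate 1 list gave 23 of its 89 X sites in 2 versions, 1 line written once and 1 written 2 times, and the other 66 sites as identical lines written 3 times. The versions differed by at most 39 bp at an end and by at most 0.489 in −log10 q, and 15 of the 23 had the same q-value. The largest change in q lay at 7315347 to 7315690, with 5.78 in the version used and 6.27 in the other, followed by 10656498 to 10656863, with 6.21 and 6.65, and 15353667 to 15354362, with 9.98 and 10.3. The 23 sites fell in 5 of the 1 Mb segments of X, and none of these held a site of the other kind. Every X share of replicate support was the same with either version.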
